A study of Homo sapiens with 6 samples.

Results

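The RNA interference machinery was followed in A549 cells, a human lung cancer cell line, through the mRNAs of its core proteins. The set named 10 genes (DROSHA, DGCR8, XPO5, DICER1, TARBP2, AGO1, AGO2, AGO3, AGO4 and TNRC6A), and its members were the array rows whose annotation gave one of these symbols. There were 4 such genes, DGCR8, XPO5, TARBP2 and TNRC6A, with 1 row each, of 14884 named genes in all. DROSHA, DICER1 and the Argonautes AGO1, AGO2, AGO3 and AGO4 had no row named for them in the annotation used here, and these 6 genes were not analysed here. The results below therefore cover Microprocessor, export, Dicer partner and GW182 through the mRNA of 1 protein each, and say nothing of the nucleases or the Argonautes.

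Cells received MYEOV siRNA 1 (siMYEOV #1), MYEOV siRNA 2 (siMYEOV #2) or a control siRNA (siNC), and total RNA was taken 48 hours later. Each of the 3 groups had 2 arrays, 6 in all. Every group had been transfected with an siRNA by the same lipid reagent, and no untransfected cells were among the samples. The load that an siRNA places on the pathway was not measured and has no reference here. No source used here gives the siRNA sequences. The labels also leave unsaid whether the 2 arrays of a group stem from separate transfections, so each p-value reflects array-to-array spread alone, and that spread may be technical. A549 is 1 established line grown in bulk, where fewer cells expressing a gene and less RNA per cell cannot be told apart.

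MicroRNAs are cut from long primary transcripts in the nucleus by the Microprocessor, in which DROSHA is the nuclease and DGCR8 the RNA-binding partner. XPO5 carries the resulting hairpin to the cytoplasm, where DICER1, helped by TARBP2, trims it to a duplex that is loaded into an Argonaute. TNRC6A, a GW182 protein, then links the Argonaute to the enzymes that remove the poly(A) tail and the cap of the target mRNA. Synthetic siRNA duplexes of the usual length join this route at the loading step, after the Microprocessor and export steps.

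Values are log2 RMA signals, so a difference of 1 is a doubling of the signal, and changes of dim transcripts are understated. Signals of different genes come from different probes and are not set against each other. MYEOV, the gene targeted by both siRNAs, had a signal of 5.34 and 5.19 with siRNA 1, 5.23 and 4.70 with siRNA 2, and 6.20 and 6.50 with the control siRNA. All 4 arrays of its siRNAs lay below both control arrays, and MYEOV fell with both, at -1.09 with siRNA 1 (limma adjusted p = 0.0215) and -1.39 with siRNA 2 (limma adjusted p = 0.00516) on the log2 scale. All 4 also lay below 5.45, the filter described below, so MYEOV passed the filter only through the control arrays, where it was higher. With no filter MYEOV was called with siRNA 2 (limma adjusted p = 0.0446) and not with siRNA 1 (limma adjusted p = 0.1355). The siRNA 1 call was lost without any 1 of the 4 arrays compared (adjusted p 0.0671 to 0.146). Of the epithelial markers, the 5 with a row (KRT7, KRT8, KRT18, KRT19 and EPCAM, of 11 listed) all averaged at least 5.45, the level that splits the named genes evenly and served as the filter, with KRT18 between 11.79 and 12.09. The markers with a row from leukocytes (CD14, 1 of 4), endothelium (PECAM1 and VWF, 2 of 3) and fibroblasts (DCN, 1 of 4) all averaged below it, the highest single value being 4.66 for CD14. Their other markers were not analysed here.

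None of the 4 genes passed the test in any of the 3 comparisons. Against the control, the largest difference was in TARBP2 with siRNA 2, where the signal differed from the control by -21.2%, followed by XPO5, where it differed by -14.4%. With siRNA 1 the 4 genes stayed between -0.15 and 0.02 of the control on the log2 scale. All 4 genes averaged above the filter of 5.45 and were tested with limma among 7442 genes, with Benjamini-Hochberg adjustment over all of them and a call at an adjusted p under 0.05. A permutation of 2 arrays against 2 cannot give an exact p below 0.333, so the test rests on the spread that limma shares between genes.

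DGCR8, the RNA-binding subunit of the Microprocessor, had a signal of 6.77 and 6.61 with siRNA 1, 6.85 and 6.83 with siRNA 2, and 6.69 and 6.67 with the control siRNA. Both siRNA 2 arrays were above all 4 others, while the siRNA 1 arrays lay on either side of the controls. With siRNA 2 it was 0.16 ± 0.08 (SE) higher on the log2 scale than the control, with a 95% confidence interval of -0.02 to 0.34 (limma adjusted p = 0.296). With siRNA 1 the difference was 0.01, with an interval of -0.18 to 0.19 (limma adjusted p = 0.973). The DGCR8 transcript is itself known to be a target of the Microprocessor, which cuts hairpins lying within it. The microRNAs annotated inside the gene on the + strand of chromosome 22 (RefSeq, GRCh38.p14) are shown here for that reason, 5′ to 3′, with the seed (bases 2 to 8), the stretch that pairs with target mRNAs, in capitals.
hsa-miR-3618, chr22:20085797-20085818: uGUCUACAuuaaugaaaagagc
hsa-miR-1306-5p, chr22:20086072-20086093: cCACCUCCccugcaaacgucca
hsa-miR-1306-3p, chr22:20086112-20086129: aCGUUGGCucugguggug
The 3 seeds differ from each other. No row of the arrays was named for either hairpin in the annotation used here, so the DGCR8 values describe the row of the host gene alone.

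XPO5, the exporter of microRNA hairpins, had a signal of 8.74 and 8.76 with siRNA 1, 8.66 and 8.69 with siRNA 2, and 8.90 and 8.90 with the control siRNA. It was the only one of the 4 genes whose arrays with either MYEOV siRNA all lay below both control arrays, a pattern seen in 10.9% of all tested genes (814 of 7442). Replicates of XPO5 were close, with an SD of 0.01 (n = 2) for siRNA 1 and 0.02 (n = 2) for siRNA 2. The difference from the control was -0.22 ± 0.06 (SE) with siRNA 2, with an interval of -0.38 to -0.07 (limma adjusted p = 0.0894). It was -0.15 ± 0.06 with siRNA 1, with an interval of -0.30 to 0.00 (limma adjusted p = 0.266). Both differences use the same 2 control arrays. With siRNA 2 the adjusted p was under the threshold with a stricter filter at the 75th percentile of named genes (limma adjusted p = 0.0322) and with a trend and robust prior (limma adjusted p = 0.0432), and it ran up to 0.327 over the other alternatives.

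TARBP2, the double-stranded RNA binding partner of Dicer, had a signal of 6.74 and 6.48 with siRNA 1, 6.34 and 6.32 with siRNA 2, and 6.68 and 6.67 with the control siRNA. Both siRNA 2 arrays were below the 4 other arrays. The siRNA 1 arrays differed by 0.26 from each other and enclosed the controls, the widest gap between replicates among the 4 genes. The difference from the control was -0.34 ± 0.09 (SE) with siRNA 2, with an interval of -0.56 to -0.12 (limma adjusted p = 0.0783). With siRNA 1 it was -0.07, with an interval of -0.29 to 0.15 (limma adjusted p = 0.763). Without siRNA 1 replicate 2 that difference was 0.06 and without siRNA 1 replicate 1 it was -0.19, so its sign was set by a single array. Over all alternatives that tested TARBP2 with siRNA 2, the adjusted p ran from 0.0556 to 0.280.

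TNRC6A, the GW182 protein with a named row in the set, had a signal of 8.65 and 8.60 with siRNA 1, 8.44 and 8.45 with siRNA 2, and 8.55 and 8.67 with the control siRNA. The siRNA 2 arrays were the 2 lowest, while the siRNA 1 arrays lay within the range of the controls. The difference from the control was -0.17 ± 0.07 (SE) with siRNA 2, with an interval of -0.34 to 0.00 (limma adjusted p = 0.237). Without control replicate 1 this difference was -0.22, and without control replicate 2 it was -0.11. With siRNA 1 it was 0.02, with an interval of -0.15 to 0.19 (limma adjusted p = 0.929).

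**Figure D1:**
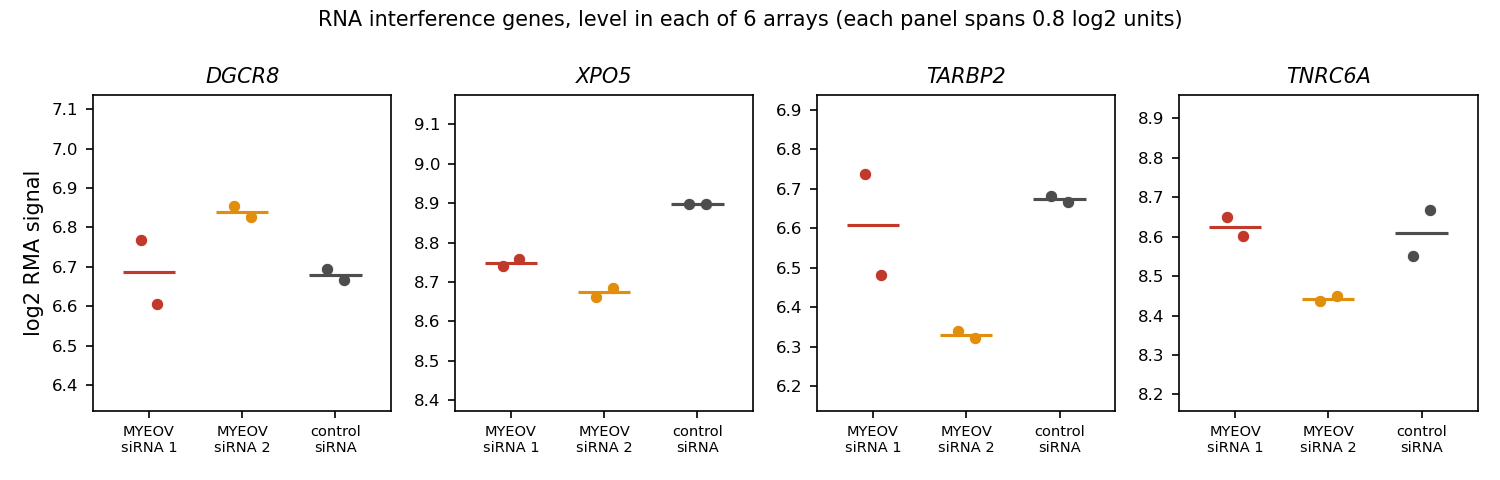
Log2 RMA signal (vertical axes, each spanning the same width) of DGCR8, XPO5, TARBP2 and TNRC6A in the 6 arrays, by group, with points for arrays and lines for the mean of 2 arrays. The siRNA 2 arrays are the highest for DGCR8 and the lowest for XPO5, TARBP2 and TNRC6A, and the siRNA 1 arrays of TARBP2 are spread from 6.48 to 6.74. The share of all tested genes with the siRNA 2 arrays at an end was not counted. Separation of siRNA 2 from the control alone is seen in 50.6% of them, and from siRNA 1 alone in 54.5%.

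With siRNA 2, the arrays of all 4 genes were separated from the controls, 3 below and 1 above. Such separation is frequent with 2 arrays a side: of the 7442 genes, 50.6% were separated with siRNA 2, 25.6% below and 25% above the control. With siRNA 1 it was 48.8%, 24.4% below and 24.4% above, and 1 of the 4 genes (XPO5, below) was separated. Limma called 0 of the 4 genes with siRNA 1 and 0 with siRNA 2, against 4.66% of all tested genes with siRNA 1 (2.28% higher, 2.38% lower) and 6.83% with siRNA 2 (2.59% higher, 4.23% lower). Before adjustment, 0 of the 4 genes had a p under 0.05 with siRNA 1, against 19.2% of all genes (9.82% higher, 9.39% lower). With siRNA 2 these were TARBP2 and XPO5, 2 of the 4 and both lower, against 22.2% (10.2% higher, 12% lower). The median difference of the 4 genes was -0.03 with siRNA 1 and -0.20 with siRNA 2, beside medians within 0.0027 of 0 over all tested genes. Leaving out each array in turn left both counts of calls at 0.

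The siRNAs were also set directly against each other, which does not use the control arrays. TARBP2 was 0.28 ± 0.09 (SE) higher with siRNA 1 than with siRNA 2, with an interval of 0.06 to 0.50 (limma adjusted p = 0.121), and TNRC6A was 0.18 ± 0.07 higher, with an interval of 0.01 to 0.35 (limma adjusted p = 0.180). The TARBP2 value was 0.15 without siRNA 1 replicate 1 and 0.41 without siRNA 1 replicate 2. DGCR8 differed by -0.15, with an interval of -0.34 to 0.03 (limma adjusted p = 0.300) and values of -0.23 and -0.07 without those same arrays, and XPO5 by 0.07, with an interval of -0.08 to 0.23 (limma adjusted p = 0.549). Arrays of all 4 genes were separated between the siRNAs, 3 higher and 1 lower with siRNA 1, against 54.5% of all tested genes (27.1% higher, 27.5% lower). How many tested genes had their siRNA 2 arrays apart from both other groups on one side, as these 4 did, was not counted. Limma called 0 of the 4 genes, against 9.15% (5.37% higher, 3.78% lower). Before adjustment 2 had a p under 0.05, TARBP2 and TNRC6A, both higher, against 23.6% (13% higher, 10.6% lower). These p-values miss the threshold without showing that the siRNAs left the genes at the same level: the intervals of XPO5, the narrowest of the 4 genes, still span differences from -0.08 to 0.23.

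**Figure D2:**
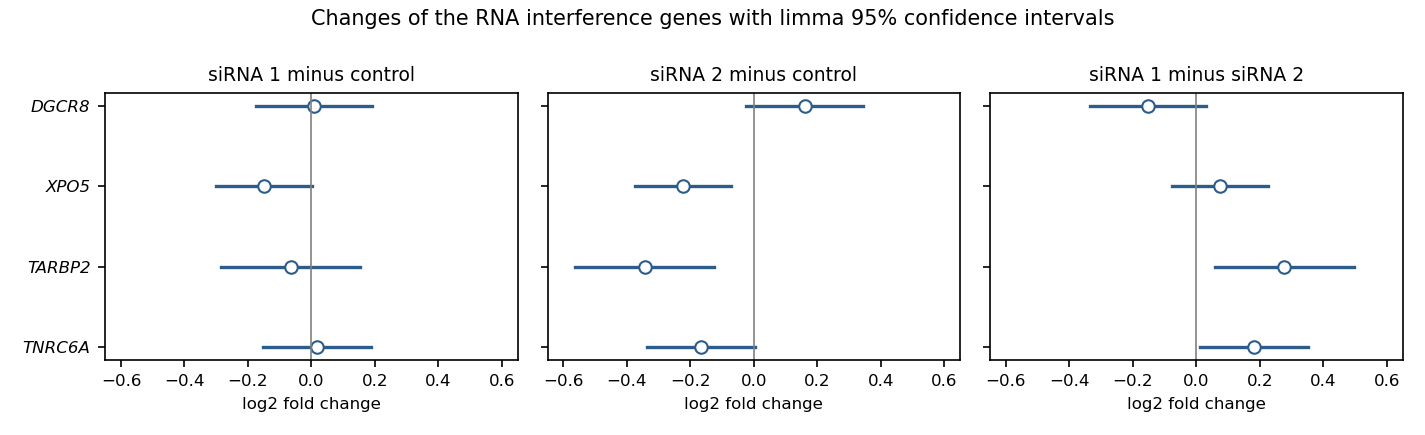
Log2 fold change (horizontal axes) of the 4 genes in the 3 comparisons, as points with 95% confidence intervals from limma, where open points mark genes that were not called. The intervals of TARBP2 and XPO5 with siRNA 2 lie below 0 before adjustment over all genes, from -0.56 to -0.12 and from -0.38 to -0.07.

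The proteins that work with this core were examined in 8 lists holding 92 genes. Of these, 57 had a named row and 52 were tested. The 5 with a row that averaged below the filter were LIN28A and the PIWI proteins PIWIL1, PIWIL2, PIWIL3 and PIWIL4, the germline branch of the Argonaute family. Their highest single value was 4.10, for PIWIL2. Of the 52 genes, 10 were called in at least 1 of the 3 comparisons (19.2%, against 13.4% of all tested genes). Limma called 2 lower and 0 higher with siRNA 1 (3.85%, against 4.66% of all tested genes) and 5 lower and 0 higher with siRNA 2 (9.62%, against 6.83%). The lists' medians were -0.05 with siRNA 1 and -0.01 with siRNA 2, beside -0.0027 and 0.0005 over all tested genes. With siRNA 1, 22 of the 52 had all arrays below both controls and 5 all above, against 24.4% and 24.4% of all tested genes. With siRNA 2 these were 19 and 11, against 25.6% and 25%. Between the siRNAs, limma called 4 higher and 4 lower with siRNA 1 (15.4%, against 9.15%).

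Among 11 Microprocessor cofactors tested, 0 were called against the control by limma with either siRNA. Before adjustment 2 of the 11 had a p under 0.05 with siRNA 1, against 19.2% of all tested genes, and 0 with siRNA 2, against 22.2%. DDX17, an RNA helicase of the Microprocessor, had a signal of 9.30 and 9.34 with siRNA 1, 9.63 and 9.67 with siRNA 2, and 9.53 and 9.64 with the control siRNA. It was lower with siRNA 1 than with siRNA 2, at -0.33 ± 0.07 (SE, limma adjusted p = 0.0339), and this call was lost without any 1 of the 4 arrays of the MYEOV siRNAs (adjusted p 0.118 to 0.161). The 2 export cofactors tested, RANGAP1 and PHAX, were not called in any comparison. PHAX had an unadjusted p under 0.05 with siRNA 2, as did 22.2% of all tested genes.

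Among 6 tested Dicer partners and Argonaute loading factors, IPO8 fell with siRNA 2, and PRKRA, the paralogue of TARBP2, was not analysed here. IPO8 was the only call of this list, 16.7% of it with siRNA 2, against 6.83% of all tested genes (4.23% lower). Between the siRNAs it was likewise 16.7%, against 9.15%. IPO8, an importin that binds Argonautes, had a signal of 8.20 and 8.33 with siRNA 1, 7.72 and 7.87 with siRNA 2, and 8.13 and 8.30 with the control siRNA. Both siRNA 2 arrays lay below the 4 others. The change was -0.43 ± 0.09 (SE) against the control (limma adjusted p = 0.0443), and IPO8 was 0.47 higher with siRNA 1 than with siRNA 2 (limma adjusted p = 0.0256). The call against the control was lost without any 1 of the 6 arrays (adjusted p 0.0724 to 0.180), and that between the siRNAs without any 1 of their 4 arrays (0.0528 to 0.143).

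The GW182 paralogues of TNRC6A were not called. TNRC6B had a signal of 7.29 and 7.38 with siRNA 1, 7.04 and 7.02 with siRNA 2, and 7.18 and 7.30 with the control siRNA. Its siRNA 2 arrays were the 2 lowest, a pattern whose share over all tested genes was not counted. It differed from the control by -0.21 with siRNA 2 (limma adjusted p = 0.156) and by 0.31 between siRNA 1 and siRNA 2 (limma adjusted p = 0.0502), a difference called with 5 of the alternatives, with adjusted p from 0.0380 to 0.0496. TNRC6C had 6.16 and 5.93 with siRNA 1, 5.45 and 5.99 with siRNA 2, and 6.18 and 6.08 with the control siRNA. Its siRNA 2 arrays were 0.54 apart, and its difference from the control of -0.41 (limma adjusted p = 0.213) was -0.14 without siRNA 2 replicate 1 (adjusted p = 0.624) and -0.68 without siRNA 2 replicate 2 (adjusted p = 0.0408), so that it rested on which of them was kept.

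Of the LIM proteins that bind Argonaute, AJUBA fell with siRNA 2 and WTIP with siRNA 1. These were the only calls against the control among the 11 tested genes of their list. With either siRNA that is 9.09%, against 4.66% of all tested genes with siRNA 1 and 6.83% with siRNA 2. AJUBA had a signal of 7.71 and 7.84 with siRNA 1, 7.23 and 7.28 with siRNA 2, and 7.79 and 7.77 with the control siRNA. It fell with siRNA 2, at -0.53 ± 0.07 (SE, limma adjusted p = 0.00814), and was 0.52 higher with siRNA 1 than with siRNA 2 (limma adjusted p = 0.00707). The first call was lost without siRNA 2 replicate 1 or control replicate 1 (adjusted p = 0.0587 and 0.0556) and the second without siRNA 1 replicate 2 (0.0593). WTIP had 7.11 and 7.15 with siRNA 1, 7.42 and 7.46 with siRNA 2, and 7.73 and 7.57 with the control siRNA. It fell with siRNA 1, at -0.52 ± 0.08 (SE, limma adjusted p = 0.0158), and had -0.21 with siRNA 2 (limma adjusted p = 0.170) and a difference between the siRNAs of -0.31 (limma adjusted p = 0.0545). The siRNA 1 call was lost without siRNA 1 replicate 1, siRNA 1 replicate 2 or control replicate 1 (adjusted p = 0.0980, 0.106 and 0.0735). LIMD1, the third of these proteins, was not called in any comparison. The other tested genes of this list (FMR1, GEMIN4, DDX20, SND1, TRIM65 and ZSWIM8) were not called either.

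Deadenylases shorten the poly(A) tail of silenced mRNAs. Of the 17 genes of this list only 4 had a named row, and the others, among them CNOT6, CNOT6L, CNOT7 and CNOT8, were not analysed here. Of the 4 tested genes 2 fell with siRNA 2, against 4.23% of all tested genes called lower. PAN3, the adaptor of the PAN2 deadenylase, had a signal of 8.16 and 8.12 with siRNA 1, 7.49 and 7.29 with siRNA 2, and 8.02 and 7.94 with the control siRNA. Its change with siRNA 2 was -0.59 ± 0.09 (SE, limma adjusted p = 0.00954), lost without siRNA 2 replicate 2 or control replicate 1 (adjusted p = 0.0528 and 0.0664). PAN3 was 0.75 ± 0.09 higher with siRNA 1 than with siRNA 2 (limma adjusted p = 0.00277), a call kept in all 16 alternatives. CNOT9, the CCR4-NOT subunit that contacts GW182 proteins, had 8.06 and 8.05 with siRNA 1, 7.75 and 7.89 with siRNA 2, and 8.24 and 8.26 with the control siRNA. Its change with siRNA 2 was -0.43 ± 0.07 (SE, limma adjusted p = 0.0191), and the call was lost without siRNA 2 replicate 1, control replicate 1 or control replicate 2 (adjusted p = 0.104, 0.0839 and 0.0832). CNOT11, another CCR4-NOT subunit, had 8.51 and 8.37 with siRNA 1, 8.77 and 8.88 with siRNA 2, and 8.81 and 8.77 with the control siRNA. It was lower with siRNA 1 than with siRNA 2, at -0.39 ± 0.08 (SE, limma adjusted p = 0.0264), a call lost without any 1 of those 4 arrays (adjusted p 0.0639 to 0.148), and it was not called against the control (-0.35 with siRNA 1, limma adjusted p = 0.0580). PAN2 was not called in any comparison.

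The list of decapping and P-bodies, which are linked to the loss of the cap of silenced mRNAs, had 10 tested genes. Limma called 1 of them with siRNA 1, lower, against 4.66% of all tested genes (2.38% lower). It called 0 with siRNA 2, against 6.83%. Before adjustment 3 of the 10 had a p under 0.05 with siRNA 1, all lower, against 19.2% of all tested genes, and 3 with siRNA 2, DCP2 higher and the other two lower, against 22.2%. DCP1A, an activator of the decapping enzyme, had a signal of 7.99 and 7.88 with siRNA 1, 8.42 and 8.28 with siRNA 2, and 8.60 and 8.53 with the control siRNA. Its change was -0.63 ± 0.08 (SE) with siRNA 1 (limma adjusted p = 0.00973) and -0.21 with siRNA 2 (limma adjusted p = 0.181), and it was lower with siRNA 1 than with siRNA 2, at -0.42 (limma adjusted p = 0.0236). The call with siRNA 1 was lost without siRNA 1 replicate 2, control replicate 1 or control replicate 2 (adjusted p = 0.0869, 0.0668 and 0.0529), and that between the siRNAs without siRNA 1 replicate 1, siRNA 1 replicate 2 or siRNA 2 replicate 1 (0.0715, 0.138 and 0.127). DCP2, the decapping enzyme itself, had 7.74 and 7.65 with siRNA 1, 8.12 and 8.03 with siRNA 2, and 7.73 and 7.85 with the control siRNA. It was lower with siRNA 1 than with siRNA 2, at -0.38 ± 0.08 (SE, limma adjusted p = 0.0285), lost without any 1 of those 4 arrays (adjusted p 0.0795 to 0.157), and its 0.29 above the control with siRNA 2 was not called (limma adjusted p = 0.0815).

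**Figure D3:**
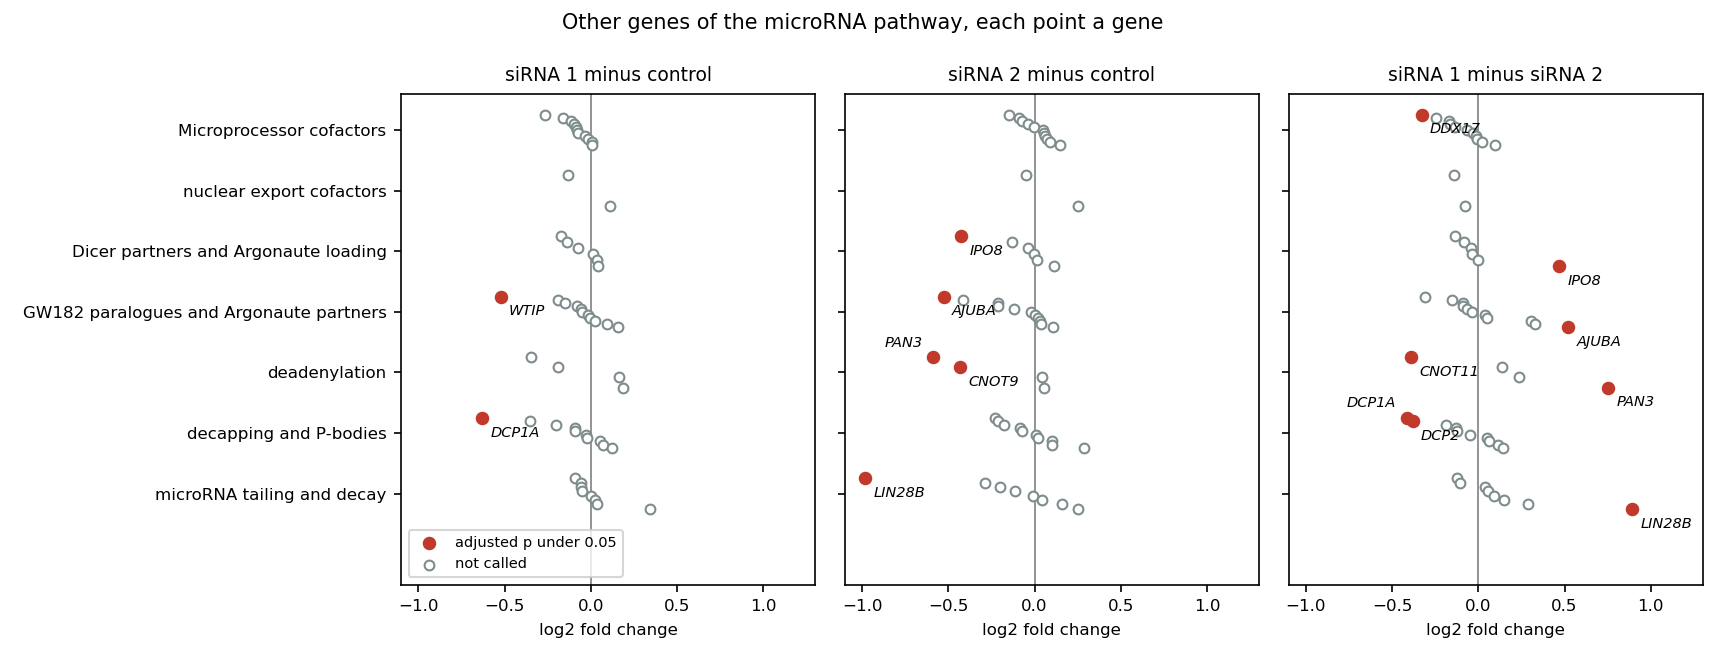
Log2 fold change (horizontal axes) of the 52 tested genes of the surrounding pathway in the 3 comparisons, 1 point per gene and 1 line per list, with filled and named points for genes called by limma. WTIP and DCP1A are called with siRNA 1, and IPO8, AJUBA, PAN3, CNOT9 and LIN28B with siRNA 2, all of them lower than the control.

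The largest change of the surrounding pathway was that of LIN28B, an RNA-binding protein that blocks the processing of let-7 precursors. LIN28B had a signal of 6.14 and 5.89 with siRNA 1, 5.05 and 5.20 with siRNA 2, and 6.05 and 6.16 with the control siRNA. Both siRNA 2 arrays were below the 4 others by more than the spread of any group. Both also lay below the filter of 5.45, so LIN28B passed only through the arrays of siRNA 1 and the control, where it was higher. LIN28B fell with siRNA 2, at -0.98 ± 0.10 (SE), with an interval of -1.23 to -0.74 (limma adjusted p = 0.00246). With no filter LIN28B was still called with siRNA 2 (limma adjusted p = 0.0304). With siRNA 1 it differed from the control by -0.09, with an interval of -0.34 to 0.15 (limma adjusted p = 0.697), and it was 0.89 ± 0.10 higher with siRNA 1 than with siRNA 2 (limma adjusted p = 0.00297). Both calls were kept in the 15 alternatives that tested it. Its paralogue LIN28A lay between 2.59 and 3.15 in the 6 arrays, below the filter. The other 7 tested genes of tailing and decay were not called in any comparison. With siRNA 2 the call of LIN28B is 12.5% of this list, against 6.83% of all tested genes.

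The let-7 genes were looked at because of LIN28B, after its values had been seen, and are given as a description. LIN28 proteins are known to contact the letters GGAG in the loop region of let-7 hairpins. The hairpins of the 4 let-7 genes whose rows averaged at or above 5.45 are shown to mark where these letters stand, 5′ to 3′ on the + strand (RefSeq, GRCh38.p14), with every GGAG in capitals.
let-7d, chr9:94178834-94178920: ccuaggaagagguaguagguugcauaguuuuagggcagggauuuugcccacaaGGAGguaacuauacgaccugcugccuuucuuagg
let-7e, chr19:51692786-51692864: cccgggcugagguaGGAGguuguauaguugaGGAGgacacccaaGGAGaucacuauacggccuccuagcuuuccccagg
let-7i, chr12:62603686-62603769: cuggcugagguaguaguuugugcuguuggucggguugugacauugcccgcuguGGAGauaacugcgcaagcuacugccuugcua
let-7a-3, chr22:46112749-46112822: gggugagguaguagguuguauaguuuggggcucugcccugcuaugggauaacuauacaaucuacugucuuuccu
The letters occur once or more in let-7d, let-7e and let-7i and not in let-7a-3. Over the RefSeq table, 9 of 11 let-7 hairpins hold GGAG (81.8%), against 678 of 1562 hairpins of all microRNAs (43.4%). The search ran on the hairpin's own strand over whole hairpins of unequal length, so these are not counts of loop sites. The mature products of these 4 genes share 1 seed, shown in capitals.
hsa-let-7a-5p: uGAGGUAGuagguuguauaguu
hsa-let-7d-5p: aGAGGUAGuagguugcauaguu
hsa-let-7e-5p: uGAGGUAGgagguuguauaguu
hsa-let-7i-5p: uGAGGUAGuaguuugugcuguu
This seed is found in 11 of 2370 mature microRNA names of the table.

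The rows named for let-7 genes measure precursor or host transcripts as far as the probes reach them, and the sources used here do not say whether mature microRNAs enter the labelled cDNA. MIRLET7D had a signal of 5.94 and 5.53 with siRNA 1, 5.80 and 5.79 with siRNA 2, and 5.13 and 5.38 with the control siRNA. Both of its control arrays lay below the filter, so MIRLET7D passed only through the arrays of the MYEOV siRNAs, where it was higher. MIRLET7E had 6.21 and 6.07 with siRNA 1, 6.12 and 5.97 with siRNA 2, and 5.83 and 5.82 with the control siRNA. MIRLET7I had 6.68 and 6.59 with siRNA 1, 6.62 and 6.76 with siRNA 2, and 6.48 and 6.49 with the control siRNA. In these 3 rows all arrays of both MYEOV siRNAs lay above both control arrays, also those of siRNA 1, with which LIN28B was not called. This pattern was seen in 12% of all tested genes (892 of 7442), and both siRNAs are set against the same 2 control arrays. None of the 3 rows was called in the fit over all genes, with limma adjusted p from 0.0745 to 0.361 over both siRNAs. MIRLET7A3 had 5.82 and 5.89 with siRNA 1, 5.84 and 5.79 with siRNA 2, and 5.98 and 5.62 with the control siRNA, so that the controls enclosed all other arrays. The other let-7 rows, MIRLET7A1, MIRLET7A2, MIRLET7C, MIRLET7F1, MIRLET7F2 and MIRLET7G, averaged below the filter and were not tested. In none of them did all arrays of both MYEOV siRNAs lie above both control arrays. With siRNA 1 the mean was below the control in MIRLET7A1, MIRLET7A2, MIRLET7C and MIRLET7F2, and above it in MIRLET7F1 and MIRLET7G. With siRNA 2 it was below the control in MIRLET7F2 alone.

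**Figure D4:**
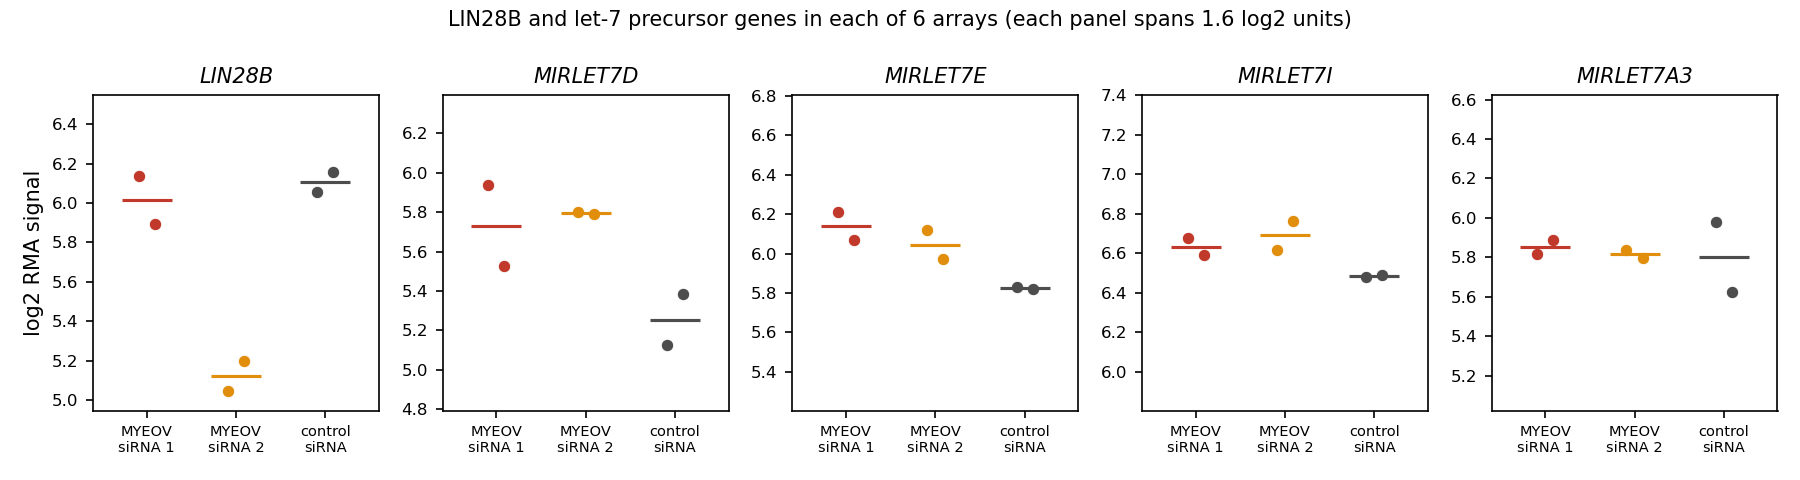
Log2 RMA signal (vertical axes, each spanning the same width) of LIN28B and of the 4 let-7 rows that averaged at or above 5.45, in the 6 arrays by group, with points for arrays and lines for the mean of 2 arrays. LIN28B is low in the siRNA 2 arrays alone (5.05 and 5.20, both below 5.45). MIRLET7D, MIRLET7E and MIRLET7I, none of them called, are higher in all arrays of both MYEOV siRNAs than in the controls. This pattern is seen in 12% of all tested genes. The let-7 rows that averaged below that level are not shown, and none of them had this pattern.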

How the data were processed

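The deposited values are log2 signals per transcript on Affymetrix whole-transcript arrays, for which the submitters' processing notes name RMA; its version is not given there, and the genome build is likewise not given in the sources used here. RMA evens the distribution of values between arrays, and the array medians lay between 4.08 and 4.10. Of 53617 rows, 16098 had 1 gene symbol, 0 several and 37519 none. All 16098 matched the RefSeq table of GRCh38.p14 by gene identifier, giving current symbols for 14884 genes. The row with the highest mean stood for a gene. Genes with a mean at or above 5.45, the median of named genes, were tested, 7442 in all, with lmFit and eBayes of limma 3.58.1 under R 4.3.3 (6 arrays, 3 groups, 3 residual and 4.09 prior degrees of freedom). The members and the pathway lists were chosen with earlier results of these data known. Every member was named, and of the lists every called gene and the GW182 paralogues. Genes resembling a member were to be named only for called members, of which there were 0. Alternatives were other filters, row rules, normalizations, priors and weights, a replicate block, only the groups compared, and each array left out. Precision is limited by 2 arrays a group. The fit was tested on simulated data. Figures were drawn with matplotlib 3.10.9.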

Additional observations from a re-analysis of the deposited data

Results flagged for a closer look

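For 8 of the 52 tested genes of the surrounding pathway (15.4%, against 9.15% of all tested genes) the effects of the siRNAs differed by a direct test. The test was limma, siRNA 1 against siRNA 2, with a Benjamini-Hochberg adjusted p under 0.05 over all genes. PAN3 differed by 0.75, LIN28B by 0.89, AJUBA by 0.52 and IPO8 by 0.47, all higher with siRNA 1 than with siRNA 2. DCP1A differed by -0.42, CNOT11 by -0.39, DCP2 by -0.38 and DDX17 by -0.33, all lower with siRNA 1 than with siRNA 2. No member of the core set was among them. Of the 8 calls, only those of PAN3 and LIN28B were kept in every alternative that tested them.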

How the results depend on the processing

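The count of 0 called members held in all 16 alternatives with siRNA 1 and between the siRNAs. With siRNA 2 it became 1 under either the trend and robust prior or the 75th percentile filter, in both cases XPO5, at -0.22. MYEOV with siRNA 1, at -1.09, was not called with no filter (limma adjusted p = 0.135), and ran from -1.23 to -0.94 with arrays left out. Signs turned only with arrays left out, where with siRNA 1 DGCR8 ran from -0.074 to 0.089, TARBP2 from -0.19 to 0.062, TNRC6A from -0.041 to 0.075 and TNRC6C from -0.20 to 0.032. Called genes of the pathway lists numbered 2 with siRNA 1, but 0 with no filter, 6 with the trend and robust prior, 6 with the 75th percentile filter, and 0 to 2 with arrays left out. With siRNA 2 they numbered 5, but 1 with no filter (LIN28B), and 1 to 4 with arrays left out. Between the siRNAs they numbered 8, but 2 with no filter (LIN28B and PAN3), and 2 to 9 with arrays left out. Upward, the count with siRNA 2 was 6 with either the 75th percentile filter or the trend and robust prior. Between the siRNAs it was 10 with the 75th percentile filter, and 11 with either the trend and robust prior or array weights. With no filter more genes enter the adjustment and the standard errors of MYEOV also differ (0.196 with no filter, 0.177 with the filter). The cause of these shifts was not tested.

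Arrays of the same replicate number deviated together (correlations 0.25, 0.27 and 0.20 across 7442 genes), but with 2 numbers this is a hint from the data and the labels give no shared day or batch. With the replicate block 0 members were called in each comparison, and 2, 6 and 10 genes of the lists.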

Other observations

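The row of DICER1-AS1, a non-coding antisense gene of DICER1, had a signal of 4.48 and 4.79 with siRNA 1, 4.59 and 4.74 with siRNA 2, and 4.65 and 4.53 with the control siRNA. It lay below the filter in every array and does not stand for DICER1. Of the surrounding pathway, 8 of 52 tested genes (15.4%) had all 4 arrays of the MYEOV siRNAs below both controls, against 10.9% of all tested genes. They were KHSRP, TSN, WTIP, GEMIN4, CNOT9, EDC4, DCP1A and XRN1. In the other direction, PHAX, PATL1 and TENT4B had all 4 arrays above both controls, a pattern seen in 12% of all tested genes.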
